A study of Mus musculus with 2 samples.

Results

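The 37 genes of the mitochondrial genome were taken by their symbols, all of which start with mt-, out of 43346 mouse genes in the gene tables. They comprise 13 protein genes, 2 ribosomal RNA genes and 22 tRNA genes. Their levels were measured by total RNA sequencing in common myeloid progenitors (CMP), bone marrow cells that give rise to granulocytes, monocytes, red cells and megakaryocytes. The series holds 2 libraries, each from a pool of 100 primary CMP of male C57BL/6J mice, adults aged 5 to 6 weeks, with no treatment or allele named in the labels. Both libraries belong to 1 group, so no condition was compared with another. RNA over 200 nucleotides was kept. The libraries are separate biological replicates by label but carry the same donor identifier, so the spread between them may not include the spread between animals, and the age, sex and strain are shared by both.

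The mitochondrial genome is a small circle that is copied many times per cell. Both of its strands are transcribed into long RNAs, from which the ribosomal RNAs and most messengers are released by excision of the tRNAs that lie between them. The 13 proteins are subunits of respiratory chain complexes I, III and IV and of the ATP synthase, complex V, and are made on mitochondrial ribosomes that use the 2 mitochondrial rRNAs. All other subunits of these complexes, and all enzymes that copy and express the genome, are encoded in the nucleus. Pieces of mitochondrial DNA have also been inserted into nuclear chromosomes over evolution, where they are annotated as pseudogenes, and the reads of a gene and of a near-identical copy cannot be told apart over the bases they share.

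The sequences of 4 members show the features on which the measurements below depend. They were read from GENCODE M21 transcripts on GRCm38, the build of the deposited tables, are written 5′ to 3′, and all 37 gene lengths equalled those in the tables. The first is mt-Atp8 (chrM:7766-7969, plus strand), the shortest protein gene with 204 bases, in which the capitals mark the 43 bases shared with the start of mt-Atp6. The second is mt-Nd4l (chrM:9877-10173, plus strand), in which the capitals mark the 3 bases past the annotated end of its nuclear copy Gm10222. This marks a limit of the annotation, not a known difference in sequence. The other 2 are the longest and the shortest mitochondrial tRNA gene, mt-Tl1 (chrM:2676-2750, plus strand, 75 bases) and mt-Ts2 (chrM:11613-11671, plus strand, 59 bases), shown because their length set whether they were measured at all.
mt-Atp8: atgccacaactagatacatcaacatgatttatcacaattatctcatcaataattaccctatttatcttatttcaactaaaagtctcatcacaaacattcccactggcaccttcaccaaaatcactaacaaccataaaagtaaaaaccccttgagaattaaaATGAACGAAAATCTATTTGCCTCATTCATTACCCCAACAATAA
mt-Nd4l: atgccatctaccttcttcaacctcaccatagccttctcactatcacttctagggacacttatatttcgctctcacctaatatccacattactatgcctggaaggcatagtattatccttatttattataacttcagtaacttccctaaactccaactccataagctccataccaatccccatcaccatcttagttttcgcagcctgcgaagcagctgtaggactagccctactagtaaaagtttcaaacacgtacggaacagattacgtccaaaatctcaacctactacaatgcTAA
mt-Tl1: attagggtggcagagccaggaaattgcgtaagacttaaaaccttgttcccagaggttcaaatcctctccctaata
mt-Ts2: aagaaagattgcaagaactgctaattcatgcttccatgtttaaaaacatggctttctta

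The tables sum to 28916263 expected counts for replicate 1 and 26426710 for replicate 2, at which a gene with no count could have at most 0.104 and 0.114 counts per 1000000 (3 counts in the library). Intervals and such limits cover counting error only. The gate was checked on its genes: Kit had 98.1 and 93.0 TPM and Cd34 74.5 and 55.4 TPM in replicates 1 and 2, while Ly6a and Il7r had 0 counts in both. The other gate genes were the Fc receptor genes Fcgr2b, with 2.48 and 9.59 TPM, and Fcgr3, with 0.64 and 4.27 TPM. The summed levels of markers of other blood cells were 50.01 and 68.3 TPM over 6 erythroid genes, which in replicate 2 was above the level of Cd34. These sums were mostly globins, among which Hba-a2 had 3.37 and 55.3 TPM and Hbb-bs 28.7 and 3.75 TPM, while Alas2 had 0 counts. The sums were 7.05 and 5.95 TPM over 5 neutrophil genes. They were 10.8 and 4.63 TPM over 4 macrophage genes, 7.60 and 12.2 TPM over 4 B cell genes and 0.10 and 0.46 TPM over 4 T cell genes. Their part in the mitochondrial values was not tested.

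Mitochondrial genes took 15.1% of the counts in replicate 1 (95% Wilson interval 15.10 to 15.12%) and 18.0% in replicate 2 (17.95 to 17.98%), or 16.5 ± 2.02% (SD, n = 2). With the other ribosomal RNA loci, Gm42418 (a locus over an rRNA repeat) and Lars2 left out of the total, the share was 26.9%. The 2 rRNA genes held nearly all of this, with 14.03% and 16.65% of all counts. The 13 protein genes held 1.08% and 1.32%, or on average 2.59% of a total without these loci and without the mitochondrial rRNAs, and the 22 tRNA genes held no count in either library. On the TPM scale, which corrects for length, the 37 genes took 20.2% and 21.9% of the total. Of the 37 genes, 14 had 1 TPM or more in both libraries: both rRNA genes, 12 of 13 protein genes and 0 of 22 tRNA genes. The exception among the protein genes, mt-Nd4l, was listed at 0 in replicate 1, and its counts are described with those of its nuclear copy below. In bulk samples, fewer mitochondria per cell and less RNA per mitochondrion cannot be told apart.

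mt-Rnr1, the 12S rRNA of the small mitochondrial ribosomal subunit (chrM:70-1024, plus strand), had 101147 TPM in replicate 1 and 102586 TPM in replicate 2. mt-Rnr2, the 16S rRNA of the large subunit (chrM:1094-2675, plus strand), had 80459 and 93818 TPM. mt-Rnr1 was thus the higher in both libraries, with a log2 ratio of mt-Rnr2 over mt-Rnr1 of -0.23 ± 0.14 (SD, n = 2), or 0.853-fold, although the 2 genes are read from the same primary transcript. The direction of this ratio turned to 0.60 when counts were taken without length correction, since mt-Rnr2 is longer with 1582 bases against 955. In counts per base of full length it was -0.12, with 1762 for mt-Rnr1 and 1501 for mt-Rnr2 in replicate 1. In replicate 2 these genes were closer, with 1747 and 1726 counts per base. Together the rRNAs stood 9.04-fold above the sum of the 13 protein genes in replicate 1 and 8.62-fold in replicate 2, on the TPM scale. An exact sign-flip test over 2 libraries cannot go below p = 0.5, so no ratio within a library was tested, here or below.

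**Figure D1:**
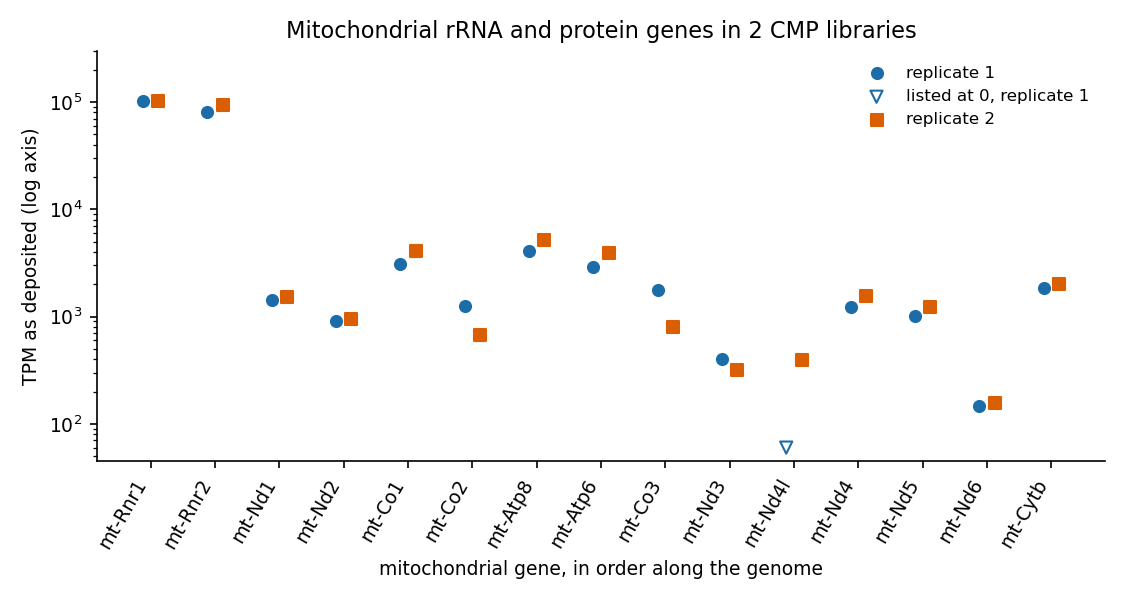
Deposited TPM (log axis) of the 2 rRNA and 13 protein genes in their order along the mitochondrial genome, 1 point per library. Both rRNA genes lie at 80459 TPM or more in both libraries, and mt-Nd6 is the lowest gene with a value above 0 in each; the open triangle, placed at the foot of the axis, marks mt-Nd4l, which was listed at 0 in replicate 1.

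Complex I, which passes electrons from NADH to ubiquinone, has 7 mitochondrial subunits that form part of its proton-pumping membrane arm. mt-Nd1 had 1433 and 1530 TPM, mt-Nd4 1219 and 1563 TPM, mt-Nd5 1022 and 1217 TPM and mt-Nd2 906 and 940 TPM in replicates 1 and 2. These 4 lay within a narrow band, and the range of each met that of a neighbour in the order of levels. For mt-Nd5 and mt-Nd2 the neighbours met were genes of complex IV. mt-Nd3 was lower, with 401 and 319 TPM, and mt-Nd4l had 0 and 393 TPM. mt-Nd6 was lower still among the genes with a value above 0, with 147 and 157 TPM.

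Complex III, which passes electrons from ubiquinol to cytochrome c, has a single mitochondrial subunit, the cytochrome b gene mt-Cytb, with 1863 and 2005 TPM. Complex IV, cytochrome c oxidase, has 3 mitochondrial subunits that make up its core. mt-Co1, which carries the haem groups and the site of oxygen reduction, had 3105 and 4119 TPM. mt-Co2, which takes electrons from cytochrome c, had 1261 and 679 TPM, and mt-Co3 had 1771 and 799 TPM. As deposited, mt-Co2 and mt-Co3 were thus higher in replicate 1 and mt-Co1 was higher in replicate 2. The authors' posterior mean TPM did not keep this direction for mt-Co3, with 964 and 1064, and was 1251 and 938 for mt-Co2.

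Complex V makes ATP from the proton gradient, and its mitochondrial subunits mt-Atp6 and mt-Atp8 belong to the membrane part. mt-Atp8 had the highest deposited level of any mitochondrial protein gene, with 4081 and 5155 TPM, and mt-Atp6 had 2868 and 3907 TPM. The rank of mt-Atp8 rested on the length correction. Its effective length, the number of positions at which a fragment of the estimated size could start, was 68.3 bases in replicate 1 and 57.5 bases in replicate 2, out of 204. Counted per base of full length instead, mt-Atp8 had 28.1 and 29.8 counts per base and stood below mt-Co1 (57.8 and 75.6), mt-Atp6 (46.4 and 61.1) and mt-Cytb (33.4 and 35.3).

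Over the whole set of 13 protein genes, 9 of the 12 neighbouring pairs in the order of mean TPM had overlapping ranges between the libraries. The order was therefore resolved at few places: below mt-Atp6, below mt-Cytb and below mt-Nd2. By complex, the share of mitochondrial protein TPM was 26.2 ± 0.93% for complex I, 9.04 ± 0.34% for complex III, 27.6 ± 4.24% for complex IV and 37.2 ± 3.65% for complex V (SD, n = 2). The first place of complex V rested on the length correction, as did that of mt-Atp8. In counts per base of full length its share was 26.03 ± 2.34%, below complex IV with 32.8 ± 3.60% and complex I with 30.4 ± 1.39%, and in counts without length correction it was 12.8%, beside 39.6% for complex IV and 35.6% for complex I.

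mt-Nd6 is the only protein gene on the minus strand of the reference, which means that it is made from the opposite long transcript to the other 12. With 147 TPM in replicate 1 and 157 TPM in replicate 2, it stood against medians of 1347 and 1373 TPM over the 12 plus-strand genes. This was 8.95-fold lower on average (log2 ratio -3.16 ± 0.05, SD, n = 2). Its coding strand also has another composition, with 28.1% G, against 5.88 to 16.1% G in the other 12. The last 45 bases of mt-Nd5 (chrM:13521-13565, plus strand) and of mt-Nd6 (chrM:13552-13596, minus strand) show how the genes meet tail to tail, and the capitals mark the 14 bases that they share on opposite strands.
mt-Nd5: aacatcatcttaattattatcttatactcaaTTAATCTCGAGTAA
mt-Nd6: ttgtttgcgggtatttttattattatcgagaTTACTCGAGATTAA
Separate signal tracks for the 2 strands are listed beside the tables, but whether counting used strand is not given in the sources used here. If it did not, reads from RNA of the opposite strand over mt-Nd6 would be counted for it. The order of the 12 plus-strand genes along the genome did not run with their level: Spearman's rho between gene start and TPM over these 12 genes, which share a library and a primary transcript, was -0.238 in replicate 1 and -0.119 in replicate 2.

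All 22 tRNA genes, 14 on the plus strand and 8 on the minus strand, had an effective length of 0 and 0 counts in both libraries. They are 59 to 75 bases long, as the sequences of mt-Ts2 and mt-Tl1 show. The mean fragment that the tables imply was 146 bases in replicate 1 and 163 bases in replicate 2, and 87 bases was the longest entry of any kind with an effective length of 0 in both libraries. A tRNA at 0 was thus below both the stated size limit of 200 nucleotides and the length at which a value could be assigned, and no level can be read from it.

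A search of the nuclear transcripts of GENCODE M21 for matches to the mitochondrial transcripts, at 90% identity or more over 100 bases or more, found 15 pseudogenes that are copies of 11 mitochondrial genes. No copy was found by this search for mt-Rnr1, mt-Rnr2, mt-Nd1 and mt-Atp8. The last 43 bases of mt-Atp8 are nevertheless shared with mt-Atp6, which has a copy. Together the copies held 33903 counts in replicate 1 (0.117% of all counts) and 61187 in replicate 2 (0.232%). Of the 15, 7 had 50 or more counts in a library, and 5 had 0 counts in both. Of those 15 copies, 7 lie side by side on the minus strand of chromosome 1, within 4663 bases (chr1:24611535-24616197), in the order of the mitochondrial genome from mt-Co1 to mt-Nd4.

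Among these, Gm28437 matched mt-Co3 at 100% over 783 bases, Gm28661 matched mt-Co2 at 100% over 681 bases, Gm10925 matched mt-Atp6 at 100% over 678 bases, and Gm10222 matched mt-Nd4l at 100% over 294 bases. Gm28438 differed from mt-Nd3 by a single base in 345, T3C, where positions are counted from 1 at the first base of the mitochondrial gene and the mitochondrial base comes first. Gm29216 matched the end of mt-Co1 over 483 bases with a single difference, A1066T, on the same count. The windows around both differences are shown, with the differing base in capitals, because reads that lie within the matched stretch and cover none of these positions carry nothing to place them in the gene or in its copy. The part of mt-Co1 before its last 483 bases lies outside the stretch that Gm29216 matches. They are chrM:9459-9481 (plus strand) and chr1:24613097-24613119 (minus strand) for the first pair, and chrM:6390-6413 (plus strand) and chr1:24616165-24616188 (minus strand) for the second.
mt-Nd3: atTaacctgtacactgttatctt
Gm28438: atCaacctgtacactgttatctt
mt-Co1: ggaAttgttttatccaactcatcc
Gm29216: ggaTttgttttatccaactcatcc

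The deposited counts of these genes and copies divided differently in the 2 libraries. mt-Co3 had 23242 counts beside 5004 in Gm28437 in replicate 1, and 10187 beside 24182 in replicate 2. The copies thus held 17.7% of the combined counts of mt-Co3 in replicate 1 and 70.4% in replicate 2. mt-Co2 had 13961 counts beside 10158 in Gm28661 in replicate 1, and 7272 beside 18445 in replicate 2, which put 42.1% and 71.7% of its combined counts in copies. For both subunits of cytochrome oxidase the copy held the larger part in replicate 2 and the smaller part in replicate 1.

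For mt-Nd4l, whose copy is annotated without the last 3 bases, all 4229 counts of replicate 1 were in Gm10222 and none in the gene. In replicate 2 the gene had 1124 counts beside 3941 in Gm10222, so that the copy held 77.8%. mt-Nd3 had its larger share in the copy in replicate 2, with 1680 counts beside 0 in Gm28438 in replicate 1 and 1231 beside 432 in replicate 2. mt-Atp6 had the larger share in the copy in replicate 1, with 31570 counts beside 2974 in Gm10925 in replicate 1 and 41579 beside 220 in replicate 2, a share in copies of 8.61% and 0.526%. Of these 6 genes, mt-Co1 was the one whose division was similar in both libraries, with 11.4% and 10.7% in copies. Most of this was Gm29216 (11397 and 13876 counts), and Gm13340, a copy on chromosome 2 at 97.6% identity over 1545 bases, had 127 and 39.5 counts. Gm28439, singled out after its values were seen, matched mt-Nd4 at 100% over 876 bases but held 10.6 and 22.9 counts, beside 30866 and 38965 in mt-Nd4, which also has bases outside the copied stretch.

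**Figure D2:**
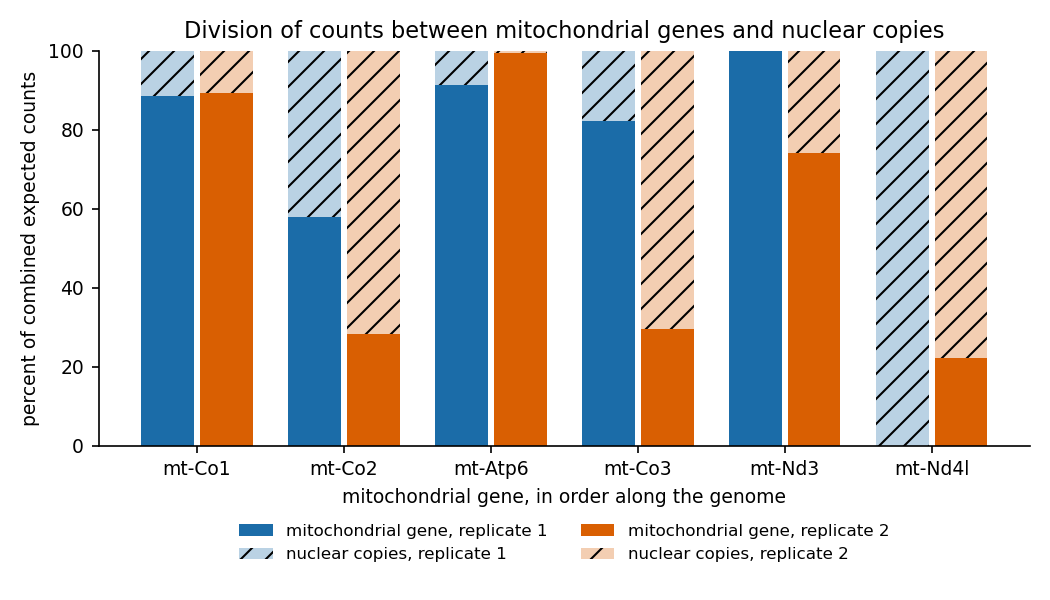
Percent of the combined expected counts of each mitochondrial gene and its nuclear copies that the deposited tables gave to the gene (solid, lower part) and to the copies (hatched, upper part), for the 6 genes with over 100 counts in copies, 2 bars per gene for replicates 1 and 2. The hatched part covers 17.7% and 70.4% for mt-Co3 but 11.4% and 10.7% for mt-Co1.

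The tables also hold the posterior SD of each count, the authors' measure of how far the division is fixed by the reads. As a percent of the posterior mean it was 47.7% and 69.5% for mt-Co3, 12.98% and 43.1% for mt-Co2 and 87.1% and 16.02% for mt-Nd4l. It was 5.13% and 19.5% for mt-Nd3 and 4.66% and 2.06% for mt-Atp6, and 0.129% and 0.111% for mt-Co1. Among the genes for which no copy was found in annotated transcripts, mt-Rnr1, mt-Nd1 and mt-Atp8 had a posterior SD of 0 counts in both libraries. The authors' posterior mean TPM of mt-Nd4l, the gene listed at 0, was 16.4 in replicate 1 and 380 in replicate 2.

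When the counts of the copies were added to their gene, mt-Co3, mt-Co2 and mt-Nd4l took higher places in the order. The libraries came closer for mt-Co3, mt-Co2, mt-Nd3 and mt-Atp6. mt-Co3 then had 2153 and 2695 TPM, mt-Co2 2179 and 2403 TPM and mt-Nd4l 1334 and 1773 TPM in replicates 1 and 2. mt-Co1 had 3506 and 4611 TPM, mt-Atp6 3138 and 3928 TPM and mt-Nd3 401 and 431 TPM. On this scale 5 of the 12 neighbouring pairs overlapped, compared with 9 as deposited. The order ran mt-Atp8, mt-Co1, mt-Atp6, mt-Co3, mt-Co2, mt-Cytb, mt-Nd4l, mt-Nd1, mt-Nd4, mt-Nd5, mt-Nd2, mt-Nd3 and mt-Nd6. The places of the short genes mt-Atp8 and mt-Nd4l in this order also depend on the length correction. The share of complex IV became 33.8 ± 0.47% and that of complex V 31.4 ± 0.78% (SD, n = 2). Adding the copies assumes that their reads come from mitochondrial RNA, which was not tested.

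Within the mitochondrial genome mt-Atp8 with mt-Atp6, and mt-Nd4l with mt-Nd4, overlap on the same strand and are known to share a messenger. mt-Nd4l and mt-Nd4 overlap by 7 bases. As deposited, the TPM of mt-Nd4l was 0 in replicate 1 and 0.252 of that of mt-Nd4 in replicate 2. With the copies added, the ratio was 1.09 and 1.13. These ratios also depend on the length correction, since mt-Nd4l had an effective length of 154 and 139 bases out of 297. The ratio with copies per base of full length was not computed. For mt-Atp8 over mt-Atp6 the TPM ratio was 1.42 and 1.32 as deposited and 1.30 and 1.31 with copies, but 0.606 and 0.488 in counts per base of full length.

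Replicate 1 was set against replicate 2 with an exact binomial test, two-sided, on whole-number counts after TMM scaling. It covered all 13619 genes with at least 10 counts in either library, and p-values were adjusted over these by the Benjamini-Hochberg method at 0.05. The test compares 2 libraries and covers counting error only. It called 78.2% of all genes tested, and 13 of the 15 mitochondrial genes tested, of which 4 were higher in replicate 1 (background 37.6%) and 9 in replicate 2 (background 40.6%). Among genes that reached 1000 counts in either library, as all 15 members did, the background was 81%. The share of mitochondrial genes called was thus near that of genes above this limit. Most members lay far above it, and genes of matched depth were not compared. The split depended on the scaling: it was 3 higher in replicate 1 and 12 in replicate 2 with total counts, and 2 and 13 with spike-in totals, where the log2 ratio of mt-Rnr1 turned to -0.58 and that of mt-Nd3 to -0.15.

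As deposited, the largest ratios were those of genes with copies. The log2 ratio of replicate 1 over replicate 2 was 1.22 for mt-Co3 (95% interval 1.18 to 1.25), 0.97 for mt-Co2 (0.93 to 1.01) and 0.48 for mt-Nd3 (0.37 to 0.58). With the posterior mean counts it turned to -0.08 for mt-Co3 and was 0.48 for mt-Co2 and 0.40 for mt-Nd3. It was -0.37 for mt-Atp6 and -0.36 for mt-Co1, and mt-Nd4l had no count in replicate 1. Of the genes without counts in copies, mt-Rnr2 had -0.17, mt-Nd5 -0.21 and mt-Cytb -0.05, and mt-Rnr1 had 0.04. mt-Nd2 (0.01, adjusted p = 0.734) and mt-Nd6 (0.00, adjusted p = 0.989) were not called by the exact test, with intervals of -0.02 to 0.04 and -0.12 to 0.12. mt-Nd4, whose copy held 10.6 and 22.9 counts, had -0.31.

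With the copies added, the ratio turned to -0.26 for mt-Co3 and to -0.06 for mt-Co2, mt-Nd3 had 0.04 and was no longer called (exact test, adjusted p = 0.435), and mt-Nd4l had -0.23. The test then called 12 of 15, with 1 higher in replicate 1 and 11 higher in replicate 2, against 78.2% of 13610 genes. The median absolute log2 ratio of the 15 genes was 0.21 as deposited and 0.06 with copies, beside 0.51 over all genes tested and 0.25 over the genes that reached 1000 counts. Adding copies made the ratio smaller in size for mt-Co3, mt-Co2, mt-Nd3 and mt-Atp6 (-0.25). It moved little for mt-Co1 (-0.35) and mt-Nd4 (-0.31), which also have copies. With the wider spread of edgeR's exact test at the common dispersion of 0.576, 0 of 15 members and 0 of 13619 genes were called. The same test gave 1 and 1542 at an unadjusted p under 0.05. This dispersion was estimated over all genes in the same 2 libraries, with both treated as 1 group. The difference under test is thus part of the spread, and no conclusion is drawn from the 0 calls.

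**Figure D3:**
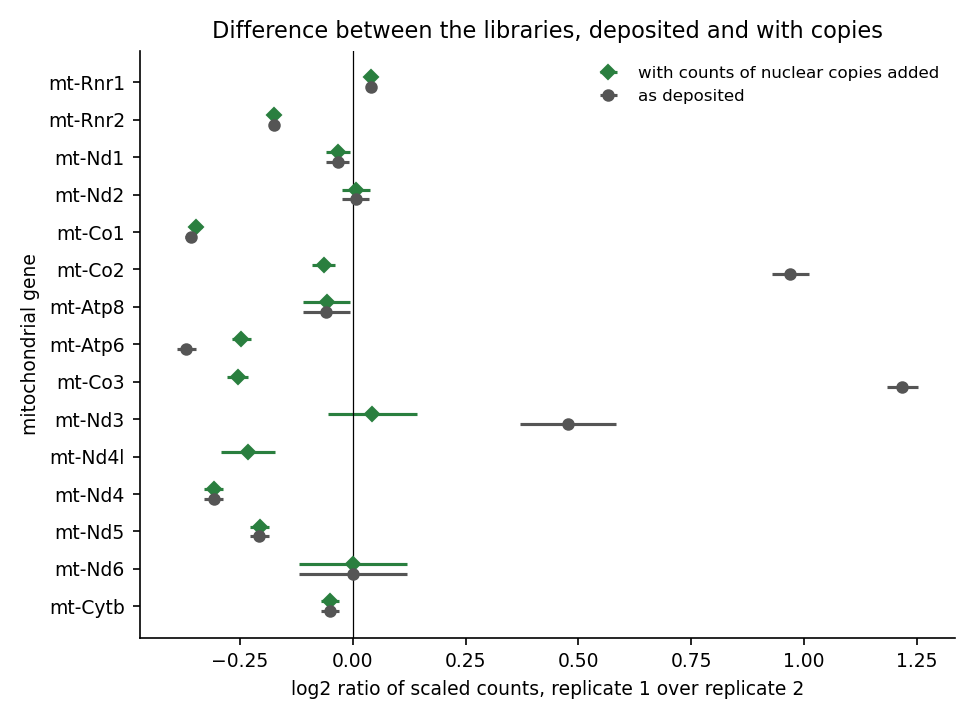
Log2 ratio of TMM-scaled counts of replicate 1 over replicate 2 for 15 mitochondrial genes, with counts of nuclear copies added (green diamonds) and as deposited (grey circles); bars are 95% binomial intervals for counting error only, and mt-Nd4l has no grey point because it had 0 counts in replicate 1. mt-Co3 and mt-Co2 lie at 1.22 and 0.97 as deposited and at -0.26 and -0.06 with copies.

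Mitochondrial subunits were then set beside the 79 nuclear genes annotated by symbol as subunits of the same complexes. In complex I the median of 7 mitochondrial genes was 923 ± 23.6 TPM, against 70.3 ± 7.30 TPM over 36 nuclear genes, a 13.2-fold difference. The nuclear genes ran from Ndufb4 (11.98 ± 1.77 TPM) to Ndufa3 (175 ± 50.7 TPM), and in replicate 1 both Ndufa3 and Ndufb8 (211 and 215 TPM) stood above mt-Nd6 (147 TPM), the lowest of the mitochondrial genes with a value in both libraries, but in replicate 2 (140 and 116 TPM) both were below it (157 TPM). In complex III mt-Cytb had 1934 ± 100.3 TPM, against 122 ± 8.78 TPM over 9 nuclear genes, from Uqcrfs1, the iron-sulphur protein (56.5 ± 4.32 TPM), to Uqcrh (377 ± 114.7 TPM), a 15.8-fold difference.

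In complex V the median was 4003 ± 746.7 TPM, against 177 ± 13.7 TPM over 16 nuclear genes, a 22.4-fold difference, with Atp5g2 (100.0 ± 21.1 TPM), a gene of the rotor ring, the lowest and Atp5b (701 ± 79.2 TPM), which encodes the catalytic subunit, the highest. The complex V median of 4003 TPM covers only mt-Atp8 and mt-Atp6, and the difference depended on the length correction. In counts per base of full length the log2 ratio was 3.90 for complex V, compared with 4.49 in TPM. On the per-base scale complex III had 4.17 and complex I 3.84. In complex IV the difference depended on the nuclear copies. The median of the 3 mitochondrial genes was 1285 ± 687.5 TPM as deposited and 2437 ± 364.4 TPM with copies, against 162 ± 11.1 TPM over 18 nuclear genes, that is 7.35-fold and 15.0-fold. The 18 include subunit isoforms known from other tissues, and only 12 had 1 TPM or more in both libraries. Over these 12 the nuclear median was 226 ± 6.89 TPM and the fold 5.27 as deposited and 10.7 with copies. Cox4i1 was the highest (347 ± 19.9 TPM), while Cox4i2, an isoform known from lung, was listed at 0. No nuclear subunit exceeded the mitochondrial median of its complex in mean TPM (SD, n = 2 throughout).

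**Figure D4:**
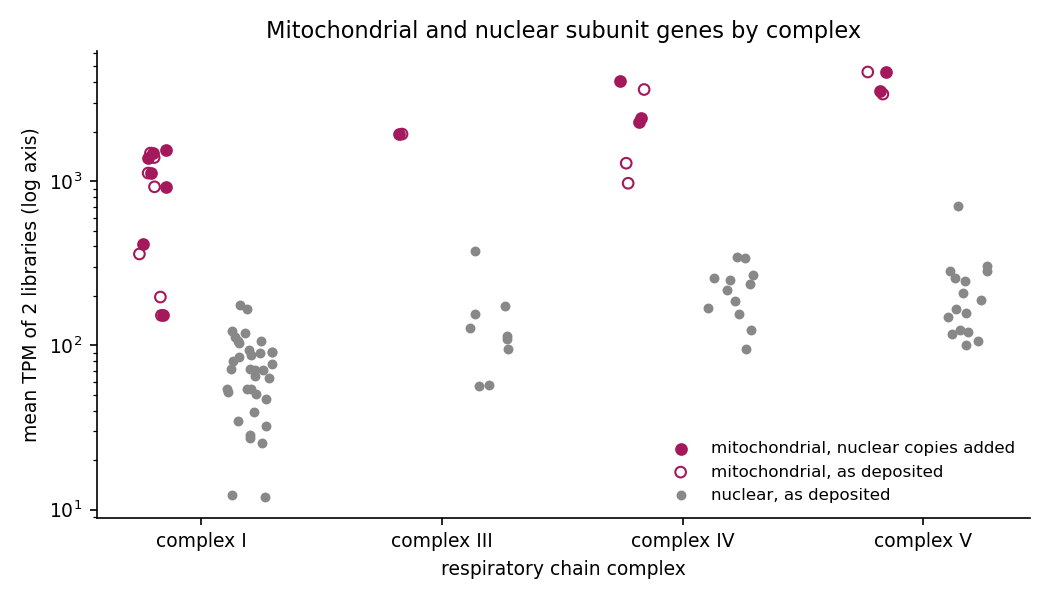
Mean TPM over 2 libraries (log axis) of the mitochondrial subunit genes, with counts of nuclear copies added (filled) and as deposited (open), to the left of the nuclear subunit genes (grey) of the same complex; nuclear genes under 1 TPM, all of complex IV, are not drawn. In complex IV the mitochondrial median is 1285 TPM as deposited and 2437 TPM with copies, against 162 TPM over the nuclear genes.

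Of 49 nuclear genes listed for copying, transcribing, processing and modifying the mitochondrial genome and its RNA, 47 were matched and 44 had 1 TPM or more in both libraries. The median of the 47 was 12.4 TPM in replicate 1 and 13.7 TPM in replicate 2. The median of nuclear protein-coding genes at 1 TPM or more in that library was 12.3 and 12.4 TPM. The list stood close to it, although the median of the 47 also includes genes under that limit. The 4 highest were Ssbp1, the mitochondrial single-stranded DNA binding protein (79.9 ± 2.69 TPM), Rexo2, an exonuclease of short RNAs (56.0 ± 13.7 TPM), Fastk (52.3 ± 1.22 TPM), a member of a family of mitochondrial RNA-binding proteins, and Pprc1, a coactivator of nuclear genes for mitochondria (49.3 ± 7.60 TPM; SD, n = 2). Ppargc1a, the related coactivator PGC-1α, had 0 counts in both libraries.

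Of the listed genes 46 were tested between the libraries and 33 were called, 13 higher in replicate 1 and 20 higher in replicate 2, against the background of 78.2% called over all genes. The largest called log2 ratios of replicate 1 over replicate 2 were -5.28 for Mterf1b (3 counts and 119 counts, 95% counting interval -7.58 to -3.70), 3.18 for Mterf2 (98 and 11), 1.85 for Fastkd5 (993 and 281) and -1.70 for Mrm2 (62 and 206). Mterf1b, which encodes a mitochondrial transcription termination factor, has the paralogue Mterf1a, which had 212 and 81 counts. Shared reads may be split between these paralogues, so neither value is certain. Mterf2 is of the same termination factor family, Fastkd5 binds mitochondrial RNA and is known in human cells for processing messengers that are not flanked by tRNAs, and Mrm2 is known in human cells to methylate the 16S rRNA.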

How the data were processed

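Per the file headers, the deposited tables hold expected counts, estimated per gene with shared reads divided, and the authors deposited TPM (per 1000000 over all entries), posterior means and posterior SDs beside them. Per the accompanying text files, build mm10 and GENCODE M4 were used, with aligner and quantifier not given in the sources used here. Symbols, coordinates and sequences came from GENCODE M21 (42462 genes matched). Copies were found with blastn 2.17.0 over nuclear transcripts. Shares have Wilson intervals at 95%; other values are means and SDs over 2 libraries. Expected counts were rounded for the exact binomial test, scaled by TMM (edgeR 4.0.16), with ribosomal RNA, spike-ins and tRNA entries left out of scaling. The test was checked on counts simulated with counting error alone, so the check does not cover other spread between libraries. All 37 members were named, and of other genes the highest, the lowest, those under 1 TPM and the largest ratios. Members and lists were chosen with earlier results of these data known. P-values cover these 2 libraries. Other scalings (DESeq2 1.42.0), minimums and estimates were tried; complex shares per base and without length correction, the 12 detected complex IV subunits and the alternatives for copies and for single-gene TPM were chosen after seeing the data.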

Additional observations from a re-analysis of the deposited data

Results flagged for a closer look

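Among the 26248 numbered tRNA entries, which are apart from the 22 mitochondrial tRNA genes and enter no comparison, 1 entry of 230 bases held 21 counts in replicate 2 and 0 in replicate 1, above the 3 counts that a count of 0 allows.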

How the results depend on the processing

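No paired analysis was possible because both libraries belong to 1 group. The share of counts in mitochondrial genes was 26.9% with other ribosomal loci, Gm42418 and Lars2 left out of the total (24.9% for rRNA genes; 2.59% for protein genes, whose total also left out the mitochondrial rRNAs), and 1.37% for protein genes with copies added. The 14 genes at 1 TPM were 14 or 15 under 0.1 TPM, 10 TPM, posterior means, 10 counts or either library alone. The 13 genes called between libraries were 12 to 15 under other scalings, minimums, posterior means and added copies. The number was 0 with edgeR's exact test at the common dispersion. That dispersion was estimated from the same 2 libraries, so no conclusion is drawn from this 0. Spike-in scaling moved the median log2 ratio of all genes to -0.65. The ratio between libraries changed sign for mt-Rnr1 with total counts (-0.16) and spike-in totals (-0.58), for mt-Nd3 with spike-in totals (-0.15), for mt-Co3 with posterior means (-0.083) and copies (-0.26), and for mt-Co2 with copies (-0.064). On the log2 scale, counts without length correction gave 0.60 for mt-Rnr2 over mt-Rnr1 (reversed, since the genes differ in length), 3.68 for rRNA over protein genes, -4.28 for mt-Nd6 over the plus-strand median, and 4.50, 4.95 and 3.50 for mitochondrial over nuclear subunits of complexes I, III and V. Counts per base of full length gave 3.41, -3.45, 3.84, 4.17 and 3.90 for the last 5 of these, and added copies gave 2.87, -3.54 and 3.99 for rRNA over protein genes, mt-Nd6 and complex I, and 3.90 for complex IV. Leaving out either library gave 15.1 to 18.0% for the share of counts, 14.03 to 16.65% for rRNA genes, 1.08 to 1.32% for protein genes and 0.117 to 0.232% for copies. It gave log2 ratios of -0.33 to -0.13 for the rRNAs, 3.11 to 3.18 for rRNA over protein genes, -3.20 to -3.13 for mt-Nd6, 3.64 to 3.80 for complex I, 3.86 to 4.11 for complex III, 2.37 to 3.38 for complex IV and 4.38 to 4.60 for complex V. Single-gene TPM moved by over 1 SD for 3 of 15 genes with copies added (mt-Co2, mt-Co3 and mt-Nd4l). With posterior means it did so for 4 (mt-Rnr1, mt-Nd1, mt-Nd2 and mt-Nd6). The posterior mean counts of these 4 nearly equalled their expected counts. Only their TPM was lower, with 96850 against 101867 for mt-Rnr1 and 145 against 152 for mt-Nd6. The cause was not tested where none is given. At over 1000 counts in a library for each of the 15 rRNA and protein genes, counting error was small, and for mt-Co2, mt-Co3 and mt-Nd4l the division of shared reads moved values further.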
